A study of Homo sapiens with 6 samples.

Results

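AKAP5 (ENSG00000179841), NEURL1B (ENSG00000214357) and RASSF5 (ENSG00000266094) are 3 signalling genes outside the cell cycle that stood among the largest falls when RKO cells were moved to fasting medium. They are 3 of the 3511 genes in the deposited table and were picked by name for the size of their difference between fasting and control medium. That difference is therefore described below without a test. RKO is an established human colorectal carcinoma cell line, labelled wild type here, and RNA was sequenced from 3 control and 3 fasting libraries. Control cells were kept in DMEM with 10% fetal bovine serum and 4.5 g/L glucose. Fasting medium was DMEM with 1% serum and 1 g/L glucose, so serum and glucose were lowered together and their parts cannot be told apart. The series' design text gives 48 h of treatment. Treatments with 5-FU/oxaliplatin, which that text also names, were not analysed here. Separate cultures behind the libraries of a group are not stated in the labels, so the error behind each p-value is that between libraries and may be technical.

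AKAP5 encodes an A-kinase anchoring protein, a scaffold that holds protein kinase A, the phosphatase calcineurin and protein kinase C at the plasma membrane close to receptors, adenylyl cyclases and calcium channels. NEURL1B encodes a RING-type ubiquitin ligase of the Neuralized family, whose members ubiquitinate Notch ligands so that the ligands are endocytosed in the cell that sends the signal. RASSF5 encodes a Ras association domain protein that binds active RAS and RAP GTPases and, through its SARAH domain, the Hippo pathway kinases STK3 and STK4. It is known as a candidate tumour suppressor and, in lymphocytes, as an effector of RAP in integrin adhesion.

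The table lists only genes that the authors had called at an adjusted p under 0.05, 11.8% of the 29845 they tested. Values are normalized read counts, that is reads scaled by a factor for each library's depth. Whole reads could be recovered from them and summed to 4017618 to 5602177 per library over the listed genes; total depth is unknown. Fasting replicate 3 stood apart by transcript length. In the longest of 5 equal classes (5705 to 22743 bases) its median log2 difference from the mean of the other fasting libraries was -0.50, and in the shortest it was 0.45. Of 8 epithelial markers only KRT18 was listed, so the label of the cells could not be checked from these values. None of the 6 fibroblast, 6 immune and 4 endothelial markers was listed.

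AKAP5 had 155, 177 and 172 normalized counts in the control libraries, in replicate order, and 41.9, 22.0 and 26.1 in the fasting ones. The groups did not overlap, and the lowest control was 3.70 times the highest fasting value. All 3511 listed genes have groups that do not overlap (100%), so this separation says nothing about AKAP5 in particular. The means were 168 ± 11.5 and 30.0 ± 10.5 normalized counts (SD, n = 3 each), so fasting cells held 17.9% of the control level. On the log2(normalized count + 1) scale the difference, fasting minus control, was -2.49, or a 5.64-fold lower level in fasting medium. Behind the fasting values stand 33, 21 and 19 reads, against 157, 249 and 236 in the controls. Fasting replicate 1 was the highest of its group. The chi-square of the reads per degree of freedom, which is 1 on average for counting error alone, was 3.11 among the fasting libraries and 0.887 among the controls. With 3 libraries a group, such a value is only a rough guide.

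NEURL1B was the most even of these genes within each group. It had 120.3, 114 and 108 normalized counts in the controls and 21.6, 20.9 and 19.3 in fasting medium. The lowest control was 4.98 times the highest fasting value. Means were 114 ± 6.38 and 20.6 ± 1.20 (SD, n = 3 each), which leaves 18.1% of the control level and a log2 difference of -2.41 (5.32-fold lower). The fasting values rest on only 17, 20 and 14 reads. Their chi-square per degree of freedom was 0.0527, and that of the controls was 0.421, so no spread beyond counting error was seen within either group.

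RASSF5 had 164, 140.0 and 134 normalized counts in the controls and 27.9, 35.6 and 19.3 in fasting medium. Fasting replicate 2 was the highest and fasting replicate 3 the lowest of its group, and the groups lay 3.78-fold apart at their nearest values. Means were 146 ± 15.5 and 27.6 ± 8.16 (SD, n = 3 each), or 18.9% of the control level. The log2 difference was -2.40 (5.28-fold lower). Reads numbered 22, 34 and 14 in fasting medium and 166, 197 and 185 in the controls, with chi-squares per degree of freedom of 1.94 and 1.88.

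**Figure D1:**
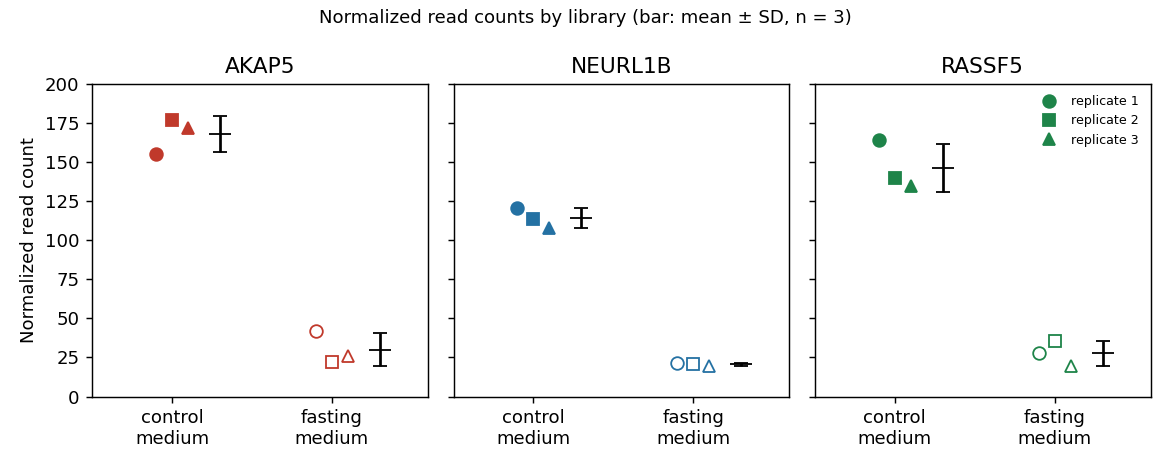
Normalized read counts (vertical axis, from 0) of AKAP5, NEURL1B and RASSF5 in control medium (filled symbols) and fasting medium (open symbols), with symbol shape for the replicate number and a black bar for mean ± SD (n = 3). The lowest control value, of NEURL1B, is 107.6, and the highest fasting value, of AKAP5, is 41.9.

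The members thus fell to nearly the same share of their control level, 17.9%, 18.1% and 18.9%. They were picked from among the largest falls, so this likeness follows from the choice. Their fitted differences lay within 0.23 log2 units, the largest standard error among them, of one another, and which of them was lowest depended on the library. Against the control mean, AKAP5 stood at -1.97, -2.88 and -2.63 log2 units in fasting replicates 1, 2 and 3. NEURL1B stood at -2.35, -2.39 and -2.50, and RASSF5 at -2.34, -2.00 and -2.85. The authors' deposited table gives log2 fold changes of -2.48 for AKAP5, -2.47 for NEURL1B and -2.40 for RASSF5.

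Per length, the genes were among the lower ones in the table. With the longest protein-coding transcript of each gene in GENCODE annotation, AKAP5 had 25.9 ± 1.77 normalized counts per kb in control medium and RASSF5 26.1 ± 2.78 (SD, n = 3), values that do not differ beyond their spread. NEURL1B was lower at 17.7 ± 0.993 per kb. Among 3073 listed protein-coding genes these control levels stood at percentiles 13.8, 14.1 and 10.7. In fasting medium the levels were 4.62 ± 1.62, 4.94 ± 1.46 and 3.20 ± 0.187 per kb for AKAP5, RASSF5 and NEURL1B, at percentiles 4.20, 4.46 and 2.73. This order depends on the transcripts used. With the shortest coding transcript instead, the control level would be 64.5 per kb for AKAP5, 75.6 for RASSF5 and 105 for NEURL1B.

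All of these transcripts are long, 6487 bases for AKAP5, 6424 for NEURL1B and 5586 for RASSF5, and length is where fasting replicate 3 stood apart. Its log2 difference from the mean of the other fasting libraries was -0.21 for AKAP5 and -0.14 for NEURL1B, against a median of -0.50 in the length class that holds both. RASSF5 differed by -0.68, against a median of -0.20 in its class. RASSF5 lies near the upper end of its class (4110 to 5701 bases), and AKAP5 and NEURL1B near the lower end of theirs, so these medians are rough yardsticks. Without fasting replicate 3 the log2 differences from control were -2.42, -2.37 and -2.17 for AKAP5, NEURL1B and RASSF5. With the trend with transcript length removed they were -2.39, -2.30 and -2.32.

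**Figure D2:**
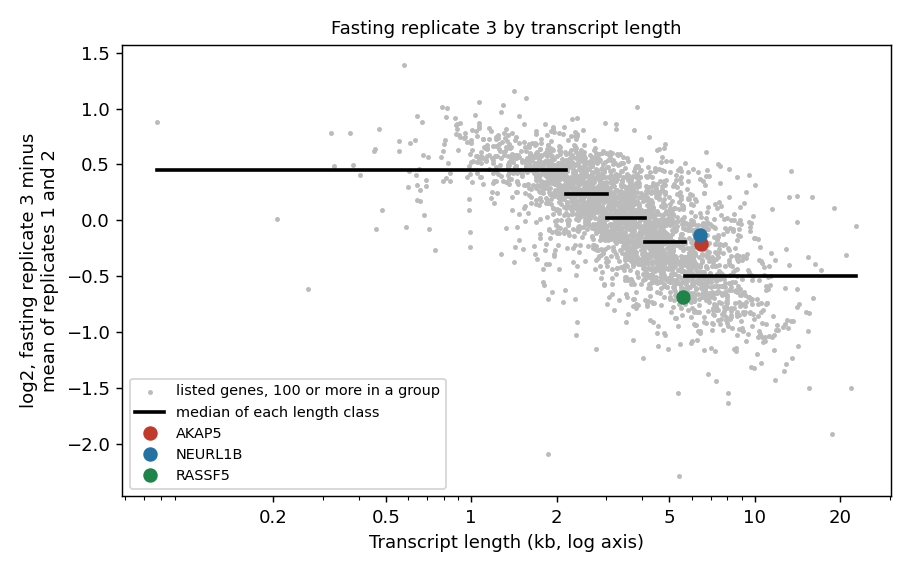
Log2 difference between fasting replicate 3 and the mean of fasting replicates 1 and 2 (vertical axis) against transcript length (log axis, kb) for 2886 listed genes that reach a mean of 100 normalized counts in a group. Black lines are medians of 5 equal length classes, from 0.45 to -0.50, and the members lie at -0.21 (AKAP5), -0.14 (NEURL1B) and -0.68 (RASSF5).

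The start regions of the genes are shown so that they can be compared, and because RASSF5 has several starts, 2 of them shown, that a gene-level count adds up. The windows are the 250 bases before each start, on the plus strand of GRCh38.p14, from RefSeq, which held all 3 genes. They cover chr14:64465249-64465498 for AKAP5, chr5:172641013-172641262 for NEURL1B, and chr1:206507281-206507530 and chr1:206556914-206557163 for RASSF5. Other coding transcripts in GENCODE start elsewhere, of RASSF5 at 206518388 and 206583272 and of AKAP5 at 64467107, and those starts are not shown. The genome build behind the counts is not given in the sources used here. Capitals mark matches, on either strand, to the GC box (GGGCGG), the CCAAT box (CCAAT), the cell cycle homology region (TTTGAA) and the TEAD motif (GGAATG).
AKAP5: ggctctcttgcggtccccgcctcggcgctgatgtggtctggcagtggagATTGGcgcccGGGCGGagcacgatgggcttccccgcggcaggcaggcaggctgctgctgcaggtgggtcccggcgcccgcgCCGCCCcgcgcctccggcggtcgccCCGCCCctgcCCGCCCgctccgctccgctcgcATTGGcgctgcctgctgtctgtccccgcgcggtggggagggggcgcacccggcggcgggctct
NEURL1B: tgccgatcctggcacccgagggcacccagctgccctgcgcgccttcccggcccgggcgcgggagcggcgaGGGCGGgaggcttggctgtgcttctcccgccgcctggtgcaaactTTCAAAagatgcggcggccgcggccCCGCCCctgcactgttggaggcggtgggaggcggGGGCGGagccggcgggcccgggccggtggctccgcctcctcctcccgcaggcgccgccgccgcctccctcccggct
RASSF5 (first start): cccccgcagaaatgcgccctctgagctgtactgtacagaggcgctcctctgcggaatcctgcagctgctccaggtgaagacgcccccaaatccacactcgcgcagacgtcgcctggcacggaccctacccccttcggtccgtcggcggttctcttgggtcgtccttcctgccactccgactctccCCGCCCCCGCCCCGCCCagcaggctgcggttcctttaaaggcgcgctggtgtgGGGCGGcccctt
RASSF5 (second start): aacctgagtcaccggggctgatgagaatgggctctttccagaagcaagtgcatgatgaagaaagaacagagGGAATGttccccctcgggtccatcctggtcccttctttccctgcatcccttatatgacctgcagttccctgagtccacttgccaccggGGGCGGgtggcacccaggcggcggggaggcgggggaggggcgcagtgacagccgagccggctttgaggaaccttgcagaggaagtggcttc
The GC box, a site of SP family factors, matched in all 4 windows, 4 times for AKAP5, 3 for NEURL1B, 4 for the first RASSF5 start (where neighbouring matches lie end to end or share a base) and 1 for the second. Over the 35114 RefSeq windows of this length, 42.6% hold it. The CCAAT box matched only in AKAP5, 201 and 63 bases before the start (32.0% of all windows). The cell cycle homology region, a motif of many G2/M gene promoters, matched only in NEURL1B, 135 bases before the start (13.3% of all windows). The second RASSF5 start holds the TEAD motif (11.9%) 179 bases before it, overlapped by a heat shock element match, GAANNTTC (5.78%). These windows held no match to the motifs of E2F (TTTNGCGC), CREB (TGACGTCA, and its half-site TGACG), MYC (CACGTG), RBPJ (TGGGAA), ATF4 (TGATGNAA) or NRF2 (TGACNNNGC), or to TATAAA. Over all windows 1.51% hold the E2F motif, 1.65% the full CREB motif, 21.2% its half-site, 6.3% the MYC motif and 20.8% that of RBPJ. The ATF4 motif is held by 3.14%, that of NRF2 by 10.9% and TATAAA by 10.7%. Most windows thus lack each of these motifs, so their absence here is common. A match is a description of letters and not a measured site.

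AKAP5, NEURL1B and the first RASSF5 start are GC-rich, with 78.8%, 78.4% and 67.6% G and C against a median of 58.0% over all windows. The second RASSF5 start has 60.8%. Its observed over expected CpG ratio is 0.438, while the other windows have 0.876, 0.833 and 0.841, against a median of 0.558. GENCODE gives RASSF5 6 protein-coding transcripts of 1932 to 5586 bases, and the deposited values do not show which of them the reads came from. Each gene also overlaps an annotated gene on the opposite strand: AKAP5 the zinc finger gene ZBTB25, NEURL1B an antisense RNA and a pseudogene, and RASSF5 the translation factor gene EIF2D. The libraries were strand-specific per the labels' protocols, but the sources used here do not give the counter's strand setting, so reads of these partners cannot be told apart with certainty. Same-strand overlaps are annotated too, the microRNA gene MIR5003 for NEURL1B, and the pseudogene AC244034.1 and the entry AC244034.3 for RASSF5. Strand does not separate reads of those. None of the overlapping genes was listed.

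In the order of log2 differences, AKAP5, NEURL1B and RASSF5 stood at ranks 2, 3 and 4 from the lowest, among 2730 protein-coding genes that reach a mean of 100 normalized counts in a group. Above them stood only the proliferation marker MKI67. Just below came LMNB1, a nuclear lamina gene, at -2.38, and MYB, a transcription factor gene of proliferating cells, at -2.37. MYB had 202, 207 and 179.5 normalized counts in the controls and 35.5, 32.4 and 44.0 in fasting medium. MKI67 stood at -2.86. The steps from AKAP5 down to MYB are smaller than the standard errors of the members (0.23 for AKAP5 and RASSF5, 0.15 for NEURL1B), so the order among these genes is not firm. Across the 17 alternative settings AKAP5 ranked between 2 and 7, NEURL1B between 3 and 7 and RASSF5 between 2 and 10. The minimum of 100 also matters, because 10 protein-coding genes under it had a lower log2 difference than AKAP5 and 12 a lower one than RASSF5.

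**Figure D3:**
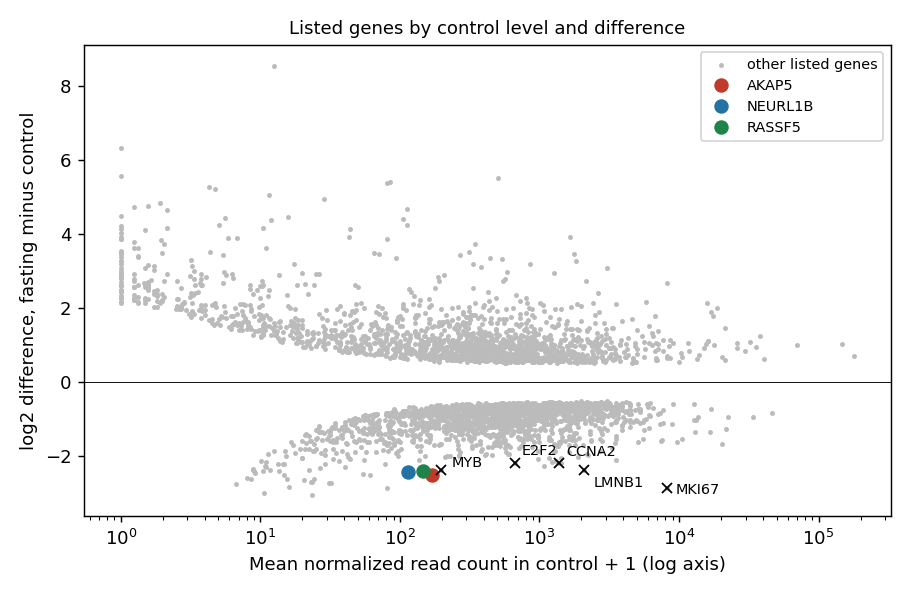
Log2 difference, fasting minus control (vertical axis), against the mean normalized count in control + 1 (log axis) for the listed genes, with AKAP5, NEURL1B and RASSF5 as coloured points and 5 genes near them in difference as crosses. The coloured points lie at -2.40 to -2.49, at control means of 114 to 168, well to the left of MKI67, LMNB1 and CCNA2. The empty band around 0 reflects that only genes called by the authors are listed.

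The genes whose pattern over the 6 libraries was most like that of each member were named by likeness, the Euclidean distance between log2(normalized count + 1) profiles, each centred on its mean, among 2896 other genes that reach a mean of 100 in a group. It mostly reads the size of the difference between the groups, which chose the members, and it has no test. NEURL1B lay nearest to LMNB1 (distance 0.23 log2 units), E2F2 (0.32), an S-phase transcription factor gene, CCNA2 (0.32), which encodes cyclin A2, the kinesin gene KIF18B (0.35) and MYB (0.43). RASSF5 lay nearest to LMNB1 (0.42), CCNA2 (0.47), the kinetochore gene KNL1 (0.51), the interferon-induced gene OAS3 (0.52) and the spindle checkpoint kinase gene BUB1B (0.53). AKAP5 had NEURL1B as its nearest gene (0.66), then E2F2 (0.69), LMNB1 (0.76), MYB (0.77) and CCNA2 (0.77). The closest pair of members was NEURL1B and RASSF5, at 0.53, with RASSF5 in place 10 for NEURL1B and NEURL1B in place 7 for RASSF5. AKAP5 was only in place 17 for NEURL1B. RASSF5 and AKAP5 were further from each other, at 1.02. RASSF5 was the gene in place 24 for AKAP5, and AKAP5 was in place 50 for RASSF5.

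The other genes of these pathways came from 12 lists, chosen with earlier results of these data known, with 226 genes beside the members. Of these, 57 were listed, and 55 passed limma's test (24 higher and 31 lower in fasting medium, adjusted p under 0.05, Benjamini-Hochberg over all genes tested). This is 24.3%, against 11.1% of all 29845 genes tested by the authors, 5.85% higher and 5.25% lower. The gap is already there in being listed at all, 25.2% of the list genes against 11.8% of all genes tested. That background includes many genes with few or no reads, and no test of the lists was made, so these shares do not measure enrichment. Every listed gene had already been called by the authors from these same libraries. Of all 3511 listed genes 3312 passed limma's test, so a pass among listed genes was nearly given beforehand. The adjusted p-values below come from the same libraries and are not independent evidence. The median log2 difference was -0.62 over the 57 listed genes and 0.53 over all listed genes. These medians cannot be set against each other. Small differences are mostly absent from the table, so a median, here or for a list below, can jump between falls and rises. With only genes that reach a mean of 10 in a group, the median over all listed genes shifts by -1.09. Calls are given relative to the authors' size factors: scaling to total reads, summed over the table, moves the log2 differences by a median of -0.47, and RLE scaling moves them by 0.20. For each gene described below, a call that did not hold under these scalings or without 1 library is given with it.

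In the AKAP family the members went both ways. Of 16 other A-kinase anchoring protein genes 3 were listed. AKAP17A, a splicing-associated member in the pseudoautosomal region, rose from 1237 ± 51.0 to 2498 ± 82.0 normalized counts (log2 difference 1.01, adjusted p = 1.53e-04 by limma). AKAP8L, a nuclear member, rose by 0.85 (adjusted p = 0.00574 by limma), and with total-read scaling its value was 0.37 and not called. AKAP1, which anchors kinase to the outer mitochondrial membrane, fell by 0.56 on the log2 scale (adjusted p = 0.0131 by limma). AKAP1 no longer passed when any one control library was dropped (adjusted p = 0.0604 to 0.0764) or with RLE scaling. At -2.49, AKAP5 had the largest difference among the 4 listed members of its family, but it was picked for the size of that difference.

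Of 32 genes of protein kinase A and cAMP enzymes 8 were listed, 7 fell and 1 rose (median -0.67), with 3 falls and 1 rise under RLE scaling. PRKACA, the main catalytic subunit, fell from 1171 ± 3.85 to 796 ± 17.9 normalized counts (log2 difference -0.56, adjusted p = 0.00192 by limma). The related kinase gene PRKX (-0.68) and PRKAR2A (-0.65), a regulatory subunit of the type that AKAP5 anchors, fell too. PRKAR2A is named here after its values were seen. Dropping any one control library ended the call of PRKX (adjusted p = 0.0926 to 0.115), and dropping any one control library, or fasting replicate 2, ended that of PRKAR2A (adjusted p = 0.0522 to 0.114). RLE scaling ended both. Among the phosphodiesterases that degrade cAMP, PDE3B went from 354, 391 and 337 to 165, 183 and 132 normalized counts (log2 difference -1.18), and PDE7A fell by 0.72. PDE4D went the other way. It rose from 292 ± 11.2 to 837 ± 195 (log2 difference 1.49, adjusted p = 9.64e-04 by limma), with fasting replicate 3 at 613 against 967 and 931 in the other fasting libraries.

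Among calcineurin, protein kinase C, calmodulin and channel genes around the scaffold, 11 of 32 were listed, 9 lower and 2 higher (median -0.68). CALM3, which encodes the calcium sensor calmodulin, fell by 0.75 on the log2 scale. DLG3, a membrane scaffold of the family that binds AKAP5 at synapses, went from 772 ± 2.73 to 466 ± 24.3 normalized counts (log2 difference -0.73, adjusted p = 9.69e-04 by limma). CABIN1, a calcineurin inhibitor, fell by 0.76. PPP3CA, a catalytic subunit of calcineurin that is named after its values were seen, fell by 0.67, but did not pass with control replicate 1 or 2 dropped (adjusted p = 0.0918 and 0.0891) or with RLE scaling. DLG4 rose from 874 ± 21.2 to 1742 ± 81.6 (log2 difference 0.99, adjusted p = 1.79e-04 by limma). RCAN1, a calcineurin regulator and itself a target of calcineurin signalling, rose by 0.73, and with total-read scaling its value was 0.26 and not called.

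Of 17 CREB factors and genes that cAMP induces 6 were listed and all 6 rose (median 1.88), and they stayed called under total-read, RLE and TMM scaling. FOSB, a gene of the AP-1 family, rose from 677 ± 75.6 to 3467 ± 251 normalized counts (log2 difference 2.36, adjusted p = 2.03e-05 by limma). The nuclear receptor gene NR4A1 went from 167, 161 and 151 to 736, 768 and 767 (log2 difference 2.24). SIK1, a kinase gene that limits CREB coactivators, rose by 1.91 and CREM, a member of the CREB family, by 1.42. The remaining listed genes are NR4A2 (1.53) and NR4A3 (1.85). These genes are also induced by many other stimuli, serum and stress among them. No other member of this list, CREB1 included, was listed.

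NEURL1B was the only listed gene among 7 Neuralized and Mind bomb ligases; NEURL1, NEURL2, NEURL3, NEURL4, MIB1 and MIB2 were not listed. Of the Notch ligands and receptors 2 of 12 were listed. DLL1, a ligand, rose from 474 ± 34.0 to 799.8 ± 29.6 normalized counts (log2 difference 0.76, adjusted p = 0.00117 by limma), and with total-read scaling its value was 0.28 and not called. JAG2, another ligand, fell from 2533 ± 96.6 to 1631 ± 136 (log2 difference -0.64, adjusted p = 0.00219 by limma). No Notch receptor gene was listed.

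Genes of Notch processing and regulation split evenly, 3 higher and 3 lower of 6 listed among 24 (median -0.04). NCSTN, a subunit of gamma-secretase, the protease that frees the intracellular domain, rose by 0.89. ADAM17, which cleaves the ectodomain of receptors, rose by 0.77, but passed only with all libraries or with fasting replicate 3 dropped; each other library, when dropped, ended the call (adjusted p = 0.117 to 0.176), as did total-read scaling. ADAM17 had 842 normalized counts in that library, and 1433 and 1384 in its fellows. LFNG, a glycosyltransferase that modifies Notch receptors, fell from 64.0 ± 9.04 to 25.1 ± 5.02 (log2 difference -1.32, adjusted p = 0.00339 by limma), and the ligase gene DTX4 fell by 1.04 on the log2 scale.

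Nuclear factors and targets of Notch also split, with 2 higher and 4 lower of 6 listed among 17 (median -0.82). The target HEY1 went from 22.7, 22.0 and 25.4 to 171, 116 and 171 normalized counts (log2 difference 2.64, adjusted p = 1.22e-04 by limma). HES1, the best-known target, rose by 1.44 from 17.4 ± 3.92 (adjusted p = 0.0216 by limma). The call of HES1 ended when control replicate 2, control replicate 3 or fasting replicate 2 was dropped (adjusted p = 0.0666 to 0.108), with the replicate block (adjusted p = 0.0573) and with total-read scaling. The coactivators MAML1 (-0.82) and MAML2 (-2.01) fell, MAML2 with 14.0, 13.6 and 4.13 normalized counts in the fasting libraries. MAML2 did not pass with control replicate 2 or 3 dropped (adjusted p = 0.0634 and 0.0836). MAML3 (-0.83) and HES6 (-0.84) fell as well. For MAML3, dropping any one control library, or fasting replicate 2, ended the call (adjusted p = 0.0781 to 0.137). For HES6 dropping any one library but fasting replicate 3 did so (adjusted p = 0.0535 to 0.106). RLE scaling ended both calls, and HES6 did not pass with the replicate block (adjusted p = 0.0508).

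In the RASSF family 3 of 9 other genes were listed and all 3 were lower, with log2 differences of -0.68 to -0.60. RASSF5, picked for the size of its fall, stood at -2.40. RASSF3 went from 977 ± 106 to 610.1 ± 80.1 normalized counts (log2 difference -0.68, adjusted p = 0.0101 by limma). RASSF4 fell by 0.67 (adjusted p = 0.0196 by limma) and RASSF7 by 0.60 (adjusted p = 0.0378 by limma) on the log2 scale. None of these calls is firm. RASSF3 did not pass with control replicate 1 or 2 dropped (adjusted p = 0.0603 and 0.0591). RASSF4 did not with control replicate 1 or 3, or fasting replicate 1 or 2, dropped (adjusted p = 0.0762 to 0.107), and RASSF7 with any one library dropped but fasting replicate 3 (adjusted p = 0.122 to 0.166). All 3 calls were also lost with RLE scaling. STK3 and STK4, the kinases that RASSF5 binds, were not listed.

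Further along the Hippo pathway 5 of 20 kinase and regulator genes were listed, 3 higher and 2 lower (median 0.51). The paralogous junction proteins AMOT and AMOTL2, both binders of YAP, went opposite ways. AMOT fell from 132 ± 9.09 to 39.9 ± 8.35 normalized counts (log2 difference -1.72, adjusted p = 6.91e-04 by limma), while AMOTL2 rose from 345 ± 17.6 to 1559.5 ± 327 (log2 difference 2.15, adjusted p = 1.29e-04 by limma). TAOK2, an upstream kinase gene, fell by 0.62. LATS2, the kinase that phosphorylates YAP, rose by 0.91 and FRMD6 by 0.51. Neither passed with any one library dropped but fasting replicate 3 (adjusted p = 0.0624 to 0.0769 for LATS2 and 0.127 to 0.162 for FRMD6) or with total-read scaling, and FRMD6 did not with the replicate block (adjusted p = 0.0581). Of 13 YAP and TEAD genes and their targets the targets CCN1 (1.50) and CCN2 (2.63) rose, CCN2 from 50.3, 43.3 and 46.5 to 293, 271 and 316 normalized counts. The remaining listed target, ANKRD1, had no read in any control and 8.89, 7.32 and 4.13 normalized counts in fasting medium.

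Of 28 RAS and RAP GTPases and RAP regulators 4 were listed, 1 higher and 1 lower by the test and 2 short of the threshold (median -0.84). SIPA1, which switches RAP off, fell from 1578 ± 76.2 to 694 ± 80.5 normalized counts (log2 difference -1.19, adjusted p = 2.72e-04 by limma). RAP1B, a GTPase that RASSF5 binds, rose by 0.63 (adjusted p = 0.0206 by limma). RAP1B did not pass with any one control library or fasting replicate 2 dropped (adjusted p = 0.0525 to 0.104), with total-read scaling (0.16) or with the trend with transcript length removed. RAPGEF5, which switches RAP on, had a log2 difference of -1.06 (adjusted p = 0.0656 by limma) and SIPA1L3 one of -0.62 (adjusted p = 0.0972 by limma). Without fasting replicate 3 both passed, at smaller differences of -0.68 for RAPGEF5 (adjusted p = 5.24e-05 by limma) and -0.39 for SIPA1L3 (adjusted p = 1.56e-04 by limma). RAPGEF5 also passed with the replicate block (adjusted p = 0.0308 by limma), with the length trend removed, with DESeq2, and with edgeR under the authors' size factors, total-read or TMM scaling, though not under RLE scaling. SIPA1L3 passed with DESeq2, total-read scaling and the length trend removed.

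**Figure D4:**
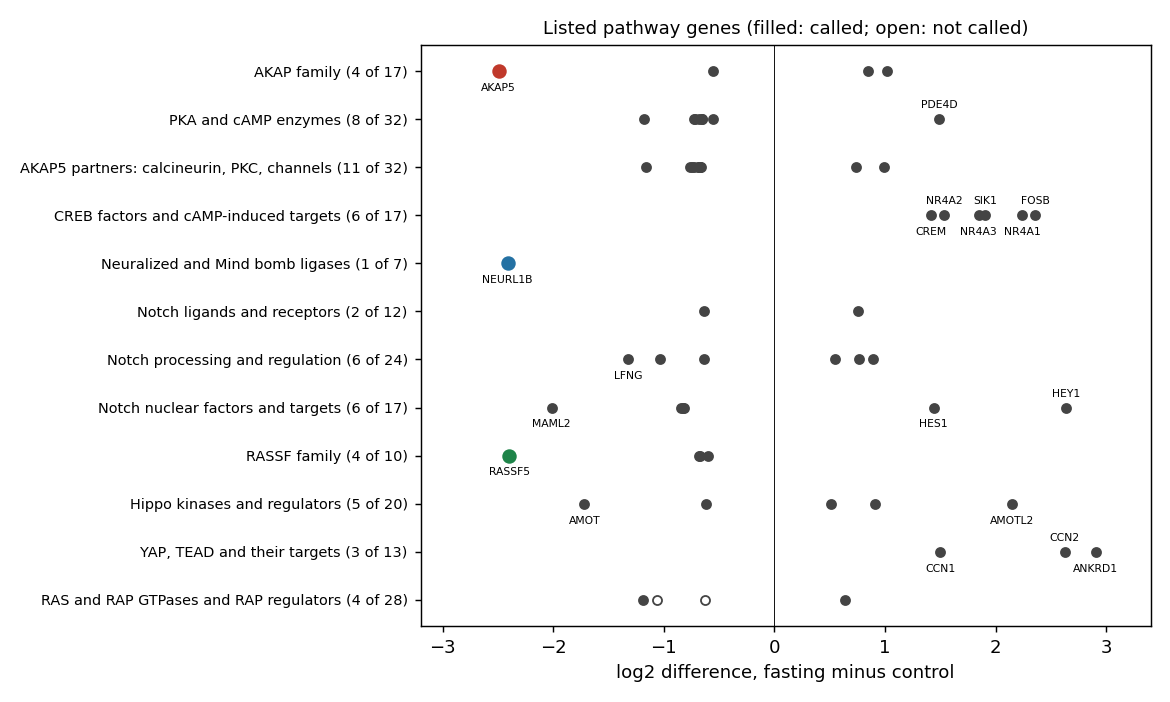
Log2 difference, fasting minus control (horizontal axis), of each listed gene of the 12 pathway lists, 1 row a list, with the number listed of all list members in brackets. Filled points passed limma's test, open points did not, coloured points are AKAP5, NEURL1B and RASSF5, and genes beyond 1.3 in size are named. The coloured points, picked for the size of their fall, lie at -2.49, -2.41 and -2.40, to the left of all other points. The cAMP-induced and YAP target rows lie to the right of 0. The value of ANKRD1 depends on the pseudocount, since its controls held no read.

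The differences of AKAP5, NEURL1B and RASSF5 kept their sign in all 17 alternative settings, with values from -2.97 to -2.30 for AKAP5, -2.92 to -2.22 for NEURL1B and -2.83 to -2.16 for RASSF5. The lowest value of each came from total-read scaling, which shifts all genes alike. Leaving out fasting replicate 1 moved AKAP5 to -2.75 and leaving out fasting replicate 2 moved it to -2.30, as its fasting replicate 1 was high and its replicate 2 low.

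**Figure D5:**
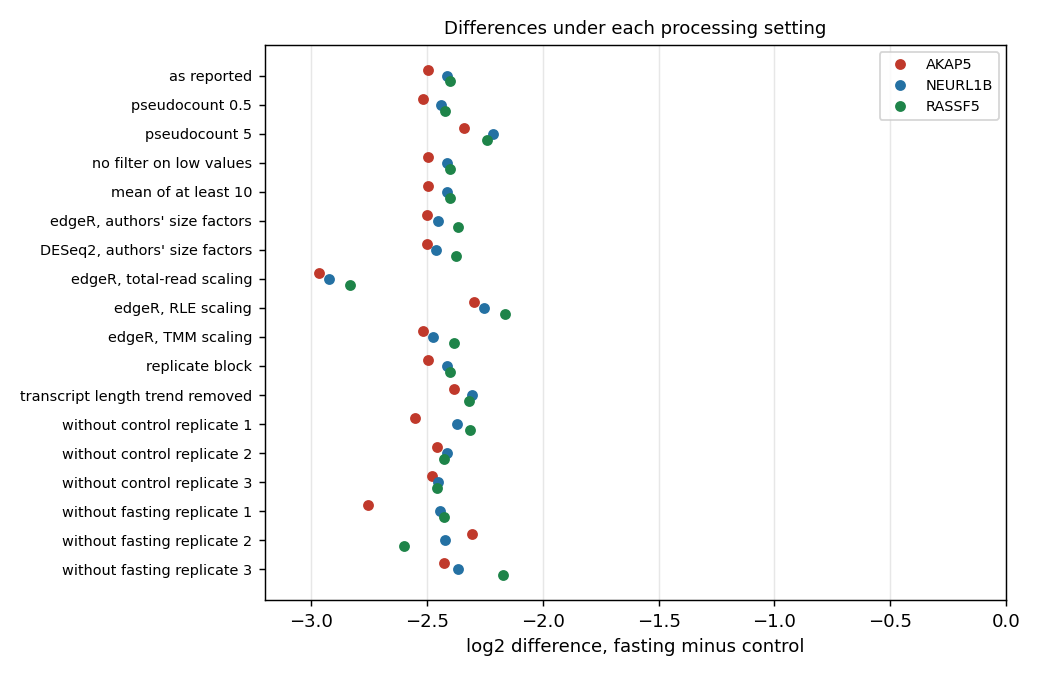
Log2 differences, fasting minus control (horizontal axis), of AKAP5, NEURL1B and RASSF5 (colours) as reported and under each of the 17 alternative settings (rows). All points lie between -2.97 and -2.16, and the rows for total-read and RLE scaling are shifted for all 3 genes together.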

How the data were processed

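The 6 sample columns of the one deposited table hold normalized counts, a signal that the authors made by dividing reads by a size factor per library. Beside them stand a log2 fold change and p-values, raw and adjusted, from the authors. HTSeq 0.6.1, DESeq 1.10.1 and UMI-tools 1.0.0 appear in the submitters' processing notes, without roles. The aligner, genome build and annotation used are not given in the sources. Dividing by the worth of 1 read gave whole reads for 100% of values (tolerance 0.01). The number of genes the authors tested (29845) was worked out from their p-values, ranks and adjusted p-values.

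Groups came from the treatment labels. limma 3.58.1 (trend, two-sided) was fitted to log2(normalized count + 1) where either group reached a mean of 1. Benjamini-Hochberg adjustment ran over 29845 genes, with unlisted ones set to 1 and a threshold of 0.05. The log2(+ 1) scale understates changes of low genes, and the moderation was estimated on genes selected for their difference. The test was checked on simulated data that held no length trend and no selection of genes for their difference, so that check does not cover these features. edgeR 4.0.16 and DESeq2 1.42.0 on recovered reads were alternatives.

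Members and lists were chosen with earlier results of these data known. Named genes are the members, the 5 nearest to each in pattern, the 2 on each side in rank, up to 4 called genes per list and direction with the smallest adjusted p, and listed members of the AKAP, Neuralized and RASSF families; others are named after their values were seen. Some genes that the rule takes are not reported here. Symbols matched 3467 of 3511 identifiers. Transcript lengths came from GENCODE annotation.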

Additional observations from a re-analysis of the deposited data

How the results depend on the processing

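Depth limits the members, whose fasting values rest on 14 to 34 reads a library. Differences are relative to the authors' size factors, and a table of called genes cannot decide between scalings. With total-read scaling the log2 differences were -2.97 (AKAP5), -2.92 (NEURL1B) and -2.83 (RASSF5). NEURL1B, whose replicate SD is small, moved to -2.25 with RLE scaling, -2.22 with a pseudocount of 5 and -2.30 with the length trend removed. Over all genes 3312 passed, 2613 with total-read scaling, which gave 879 against 1745 higher and put 33.6% against 52.7% of calls on the higher side. Leaving out 1 library gave 2624 to 3509 calls.

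Among the lists, called members numbered 4 against 8 for protein kinase A and cAMP enzymes with RLE scaling, 1 against 2 for Notch ligands and receptors and 3 against 5 for Hippo kinases and regulators with total-read scaling, and 0 against 3 for other RASSF genes with RLE scaling. RAS and RAP genes had 4 against 2 with DESeq2. On leaving out 1 library the counts ran from 4 to 8 for protein kinase A and cAMP enzymes, 2 to 6 for Notch nuclear factors and targets, 0 to 3 for other RASSF genes, 3 to 5 for Hippo genes and 1 to 4 for RAS and RAP genes. No result changed sign. The cause of these changes was not tested. Of 55 list genes called, 20 did not pass with some library dropped, 9 with total-read scaling, 13 with RLE scaling, 1 with the length trend removed and 0 without fasting replicate 3.

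With the replicate number as a block (replicate block), 3293 genes passed against 3312, the members stayed at -2.49, -2.41 and -2.40, and 4 list genes lost their call. Deviations of same-numbered libraries correlated at 0.0315, 0.0265 and 0.0772, and control replicate 1 correlated best with fasting replicate 2 (0.0996). Correlations this weak cannot decide whether the numbers mark paired libraries.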
